A study of Mus musculus with 12 samples.

Results

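Proteasome subunit genes encode the machine that degrades most short-lived proteins of the cell. Their mRNA was followed in perigonadal fat of mice that had more or less of the glucose transporter Glut4 in adipose tissue. Members were the genes whose symbol starts with Psma, Psmb, Psmc, Psmd or Psme on a probe set that names a single gene, leaving out the immunoproteasome subunits Psmb8, Psmb9 and Psmb10. The rule found 39 genes on 50 probe sets, of 8251 genes named in this way and 12422 probe sets in all. Each gene was represented by its brightest probe set, judged on the mean of all 12 arrays. Of the 39 genes, 2 match by name only: Psmc3ip and Psme3ip1 encode proteins that bind a subunit or a regulator, which leaves 37 genes of the proteasome and its helpers. Psmd10 was too dim to test, so 38 members were tested. Psme2, which encodes the partner of Psme1, has no value because its probe sets also name Psme2b, and the alpha subunit Psma8 and the beta subunit Psmb11 were not named by a single-gene probe set.

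Each of the 12 arrays measured 1 mouse, with 3 mice per group, and every mouse was a female of 6 months with free access to food (ad libitum), per the labels. The overexpressors carried a Glut4 transgene driven by the aP2 promoter on the FVB background, and their controls were FVB littermates. The adipose-Glut4-/- animals, here called knockouts, and their controls were on a mix of C57B6, FVB and SV129, and the controls carried aP2-Cre. The aP2 gene, also named Fabp4, is active in fat cells and also in macrophages. Because the lines differ in strain and possibly in processing, each mutant was read only against its own control. The adipocyte marker list had 8 of 10 genes on the array, all tested, and its summed intensity ran from 23682 to 30517 over the 12 arrays, so the labelled tissue carried its markers. The lowest sum was that of overexpressor 1. The targeted gene Slc2a4, which encodes Glut4, read 625, 1110 and 1042 in the overexpressors against 639, 583 and 1212 (log2 change 0.22, standard error 0.26), and 378, 365 and 363 in the knockouts against 416, 514 and 614 (-0.43, standard error 0.26), and neither change passed limma's test. The overexpressors overlapped their controls and all 3 knockouts lay below theirs. The labels do not say which exons were removed or from which species the transgene came, so this gene does not check them.

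The proteasome is a barrel of alpha and beta rings closed at its ends by regulatory caps. The alpha subunits form the outer rings and the gate, and 3 of the beta subunits of the inner rings, encoded by Psmb5, Psmb6 and Psmb7, cut the substrate. The base of the cap holds a ring of ATPases (Psmc genes) that unfold proteins marked with ubiquitin, and the lid holds Psmd14, which removes the ubiquitin chain. Subunit genes are known to be transcribed together, in many cells under Nfe2l1, a transcription factor that has been studied in brown fat.

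No proteasome gene passed the test in either line. Differences are given as log2 changes of intensity plus a constant, with limma's p-values adjusted by Benjamini-Hochberg over 7454 tested probe sets and a threshold of 0.05. In the overexpressors 0 of 38 members passed, where 0.0805% of all tested probe sets did. At an unadjusted p under 0.05 there was 1 member, Psmd8, and 4.76% of all probe sets, and a fit with array weights called 1 member, again Psmd8, and 5.62% of all probe sets. In the knockouts 0 of 38 members passed, against 0.121% of all probe sets, and 0 had an unadjusted p under 0.05, against 3.98%. The difference between the effects of the lines was called for 0 members and for 0.161% of all probe sets. The 95% intervals of all 38 members lay between -1 and 1 in the overexpressors, and those of 37 did in the knockouts. They reached a median of 0.40 to either side of the estimate in each line. In whole fat, fewer cells of a type and less RNA per cell cannot be told apart.

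**Figure D1:**
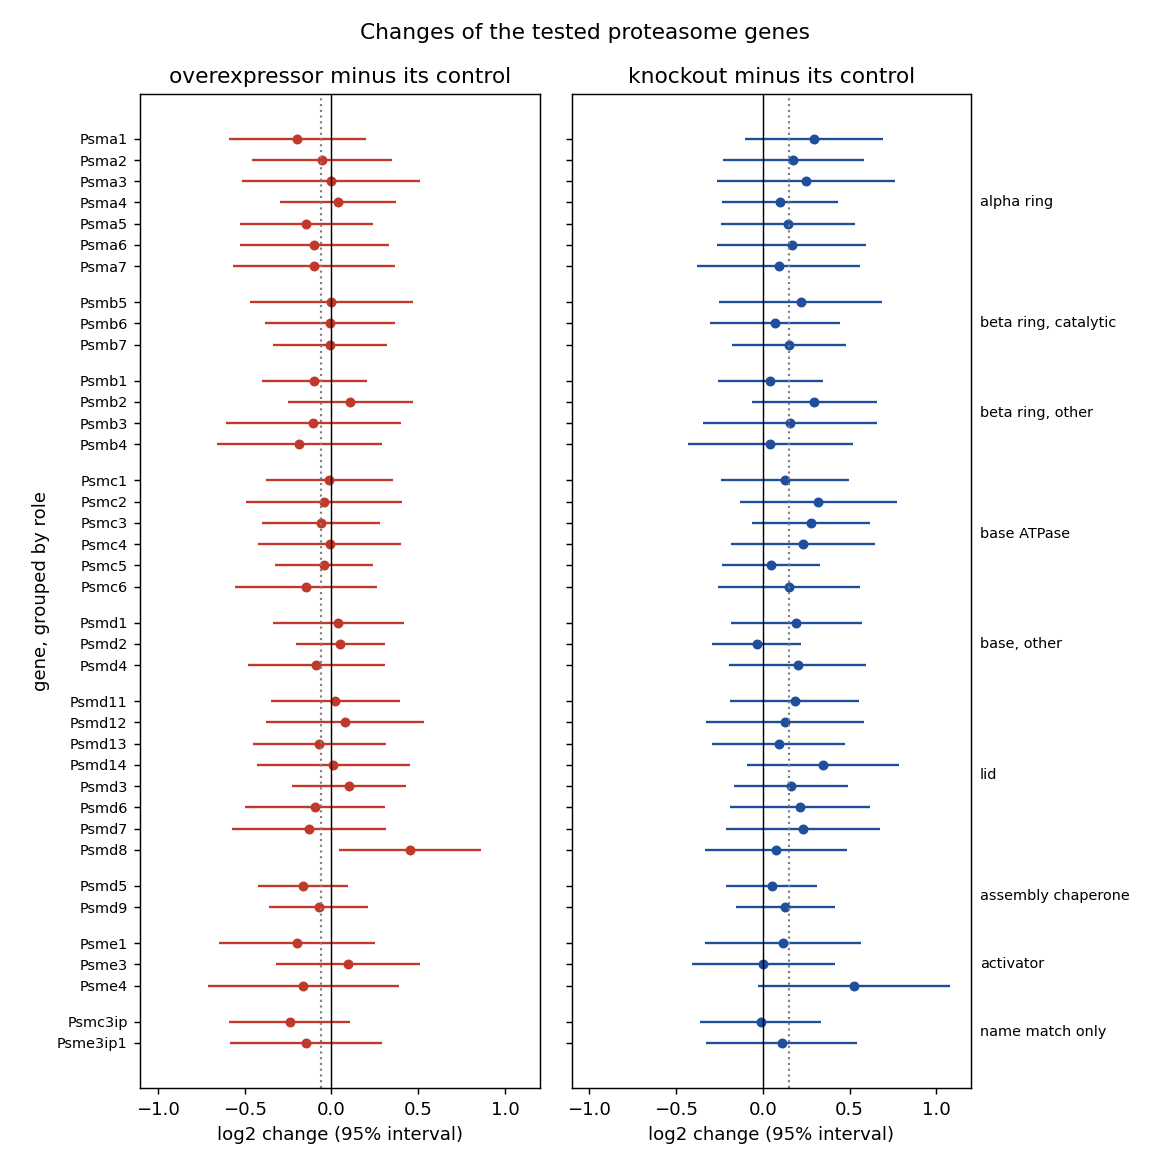
Log2 change of each of the 38 tested members with its 95% interval (points and bars), for overexpressors (left) and knockouts (right) against their own controls, 3 arrays per group. The dotted lines mark the medians of the members, -0.06 and 0.15, and only the interval of Psmd8 in the overexpressors does not reach 0.

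The members' changes were small. In the overexpressors the share of members above 0 was near that of all tested probe sets, with 11 of 38 beside 29.7%, and the median of -0.06 stood beside -0.07 over all of them. In the knockouts 36 of 38 were above 0, where 63% of all tested probe sets were, and the median was 0.15 beside 0.04. The members below 0 there were the base subunit Psmd2 (-0.04) and Psmc3ip (-0.01). Both a value below 0 in the overexpressors and one above 0 in the knockouts were found for 26 of 38 members and for 44.6% of all tested probe sets. The median of the overexpressor change minus the knockout change was -0.22, and -0.12 over all probe sets.

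The members were extreme on the same few arrays. In the knockout line, knockout control 3 held the lowest of 6 values for 36 of 38 members, against 42.9% of all tested probe sets. Knockout 3 held the highest for 25 members, against 37.4%. In the overexpressor line, overexpressor 1 was lowest for 32 members, against 48.4% of all probe sets, and overexpressor control 1 was highest for 21, against 39.8%. Relative to the mean of their line, the members lay on average at -0.29, 0.13 and 0.09 on overexpressors 1, 2 and 3, and at 0.16, -0.08 and -0.01 on their controls. They lay at -0.08, 0.09 and 0.24 on the knockouts and at 0.01, 0.14 and -0.39 on their controls. Both low arrays were also the dimmest, with a median intensity over all probe sets of 186 on knockout control 3 and 188 on overexpressor 1, where the others had 203 to 219. With each array's median subtracted, the members still lay at -0.17 on overexpressor 1 and -0.28 on knockout control 3. Lists of related genes, described further below, were low on these arrays too. On overexpressor 1 they averaged from -0.40 (ubiquitin and E1) to -0.05 (immunoproteasome), beside -0.16 for all tested probe sets. On knockout control 3 they averaged from -0.53 (ubiquitin and E1) to -0.12 (Nfe2l2 target enzymes), beside -0.15. The members spread more over the arrays than the typical probe set: the highest of 6 values was 1.53 times the lowest in the overexpressor line and 1.70 times in the knockout line at the median, against 1.42 and 1.44 over all tested probe sets.

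**Figure D2:**
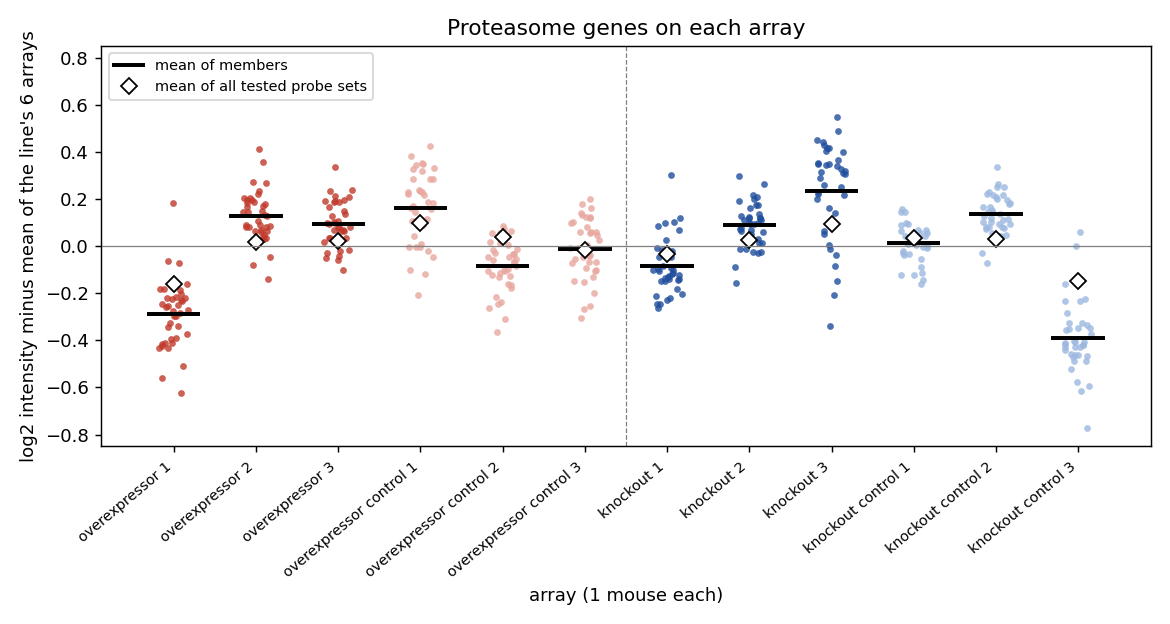
Log2 intensity of the 38 tested members on each array, minus the mean over the 6 arrays of the line (points, 1 per gene), with the members' mean (bars) and the mean of all 7454 tested probe sets (diamonds). Members sit lowest on overexpressor 1 and knockout control 3, below the diamonds there.

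The counts above 0 depended on these arrays. Without knockout control 3, 15 of 38 members were above 0, with a median of -0.0087, and all tested probe sets had a median of -0.0097 with 46.8% above 0. Without knockout 3, 28 members were above 0 with a median of 0.08, where all probe sets had 0.02 and 56%. Without overexpressor 1, 27 of 38 members were above 0 with a median of 0.07, where all probe sets had -0.02 and 43.5%. The count in that line was 17 without overexpressor control 1, beside 34.9% of all tested probe sets. It was 6 without overexpressor 2, overexpressor 3 or overexpressor control 2, beside 26.6%, 27.4% and 30.45%. With array medians subtracted the counts were 19 in the overexpressors and 35 in the knockouts, where 46.2% and 51.9% of all tested probe sets were above 0. With quantile normalization within each line they were 26 and 31, beside 51.7% and 47.1% of all.

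**Figure D3:**
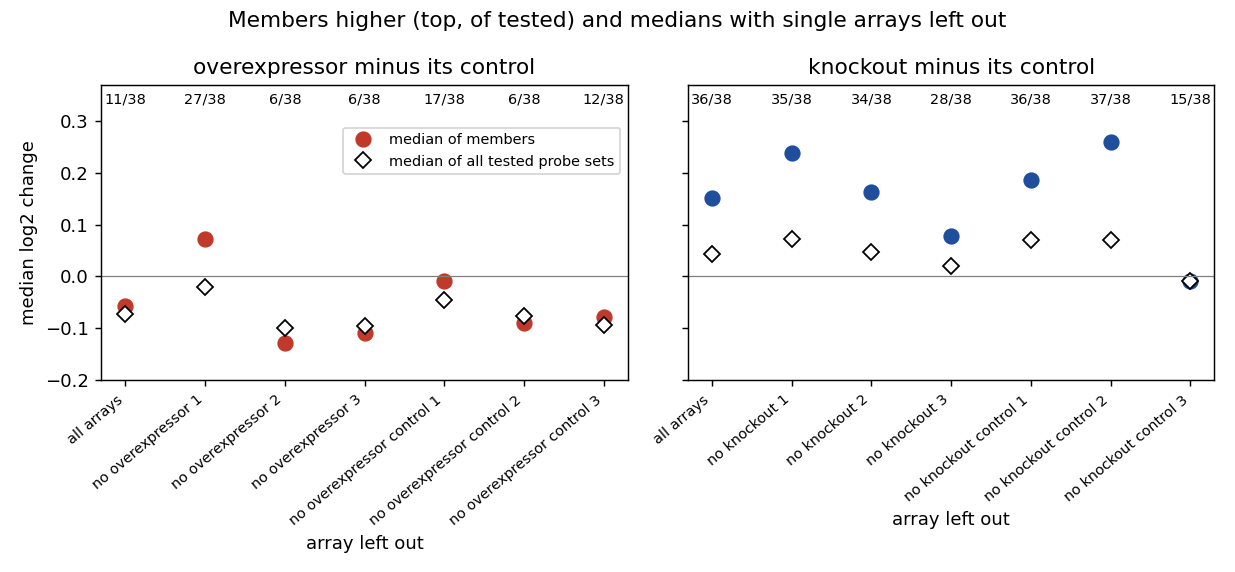
Median log2 change of the members (filled points) and of all tested probe sets (diamonds) with all arrays and with each array of the line left out, for overexpressors (left) and knockouts (right), and above each the number of 38 members above 0. The members' median crosses 0 without overexpressor 1 and without knockout control 3.

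Markers of other cells differed between the same arrays. Of 9 skeletal muscle markers, all on the array and 8 of them tested (Tnni2 was too dim), the summed intensity ran from 1535 on overexpressor 1 to 5477 in that group, and from 2414 to 4316 in its controls. In the knockouts it ran from 2593 to 10243, the top being knockout 3, and in their controls from 2766 to 5314. The markers of this list disagreed. Acta1 (3781), Myl1 (2267), Myh1 (1199), Tnnt3 (1020) and Mylpf (548) were highest of the line on knockout 3. There Ckm (69.7) was the lowest of the line, and neither Myh4 (333) nor Mb (686) was the highest. On overexpressor 1 the genes highest on knockout 3 were the lowest of that line, as was Myh4 (209), while Ckm (259) was not. In the overexpressors, 9 of 10 fibroblast markers were below 0 (median -0.49, 0 called, 6 with an unadjusted p under 0.05), with sums of 19351 to 23957 against 22564 to 32948 in controls, and so were all 7 smooth muscle markers (median -0.41, 0 called, 4 at that p), with sums of 8586 to 9685 against 8553 to 15930. Macrophage markers had 9 of 9 tested below 0 there (median -0.27, 0 with an unadjusted p under 0.05), with sums of 4640 to 5138 against 4323 to 8072. Endothelial markers had 8 of 8 below 0 (median -0.26, 0 called, Flt1 and Tie1 at that p), with sums of 2953 to 4106 against 3751 to 4442, and mesothelial markers 5 of 5 (median -0.24, none at that p), with sums of 2615 to 3165 against 2714 to 5448. Of all tested probe sets 29.7% were above 0 in that comparison, and the median was -0.07. On overexpressor 1, where the members averaged -0.29, the adipocyte markers averaged -0.29, the endothelial ones -0.32 and the fibroblast ones -0.36 relative to the mean of the line. The marker lists on overexpressor 1 ran from -0.82 (skeletal muscle) to 0.03 (T cell), beside -0.16 for all tested probe sets. On overexpressor control 1, where the members averaged 0.16, the mesothelial markers averaged 0.68, the macrophage ones 0.52 and the adipocyte ones -0.15. On knockout control 3, where the members averaged -0.39, the lists ran from -0.39 (skeletal muscle) to 0.10 (ovary and uterus). There the adipocyte markers averaged -0.09, the fibroblast ones -0.02 and all tested probe sets -0.15. In the knockouts, where 63% of all tested probe sets were above 0, 6 of 7 smooth muscle markers were below 0 (median -0.32, 0 with an unadjusted p under 0.05). So were 7 of 10 fibroblast (-0.12) and 4 of 5 mesothelial markers (-0.13). Above 0 were 7 of 8 skeletal muscle (0.24), 7 of 8 adipocyte (0.08) and 7 of 9 macrophage markers (0.04). Of the B cell markers 2 of 5 were above 0 (median -0.11), with Ighm called at 1.40 (limma adjusted p = 0.0160). Pax5 (0.09), Blnk (-0.11), Cd79b (-0.11) and Ms4a1 (-0.16) were not called. The part of these cells in the members' values was not tested.

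The alpha ring genes, which form the gate of the barrel, gave 6 of 7 values below 0 in the overexpressors (median -0.10) and 7 of 7 above 0 in the knockouts (median 0.17). Beside these counts, and those of the other parts below, 29.7% and 63% of all tested probe sets were above 0. Psma1 read 306, 478 and 405 in the overexpressors and 501, 438 and 421 in their controls. The overexpressor 1 value was the lowest of the 6, and the groups overlapped. The log2 change was -0.20 (standard error, SE, 0.18; limma adjusted p = 0.924). In the knockouts Psma1 read 252, 316 and 401, and in their controls 285, 277 and 202. Knockout 3 was highest and knockout control 3 lowest, and the groups overlapped through knockout 1. The change was 0.30 (SE 0.18, limma adjusted p = 1). For the others the changes were, overexpressor first and knockout second, -0.05 and 0.18 for Psma2, -0.0044 and 0.25 for Psma3, 0.04 and 0.10 for Psma4, -0.14 and 0.15 for Psma5, -0.10 and 0.17 for Psma6, and -0.10 and 0.09 for Psma7.

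The genes of the 3 cutting subunits lay between -0.01 and 0.00045 in the overexpressors. Psmb5, whose product cuts after hydrophobic residues, read 326, 501 and 418 in the overexpressors and 522, 357 and 365 in their controls. The highest value was in a control and the lowest in an overexpressor, so the groups overlapped, and the change was 0.00045 (95% interval -0.47 to 0.47). In the knockouts it read 347, 403 and 474 against 391, 429 and 238. The 238 of knockout control 3 stood below the other 5, and the change was 0.22 (95% interval -0.25 to 0.69). A second tested Psmb5 probe set read 372, 383 and 280 in the knockouts and 364, 386 and 297 in their controls, with a change of -0.02, so its lowest value was on knockout 3 and the probe sets of this gene differed in direction.

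Psmb6, of the caspase-like site, read 688, 848 and 902 in the overexpressors and 808, 762 and 871 in their controls (change -0.0081, 95% interval -0.38 to 0.37). Its knockout values were 703, 786 and 920 and those of the controls 728, 991 and 601 (0.07, interval -0.30 to 0.45). Psmb7, of the trypsin-like site, read 1073, 1411 and 1517 against 1321, 1231 and 1445 in the overexpressor line (-0.01, interval -0.34 to 0.32). For both genes overexpressor 1 was the lowest array of its line, and the groups overlapped. In the knockout line Psmb7 read 1211, 1405 and 1514 against 1189, 1423 and 1100 (0.15, interval -0.18 to 0.48), with knockout control 3 lowest and overlap again.

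The beta ring genes without a cutting site gave 3 of 4 values below 0 in the overexpressors and 4 of 4 above 0 in the knockouts. Psmb2 read 880, 980 and 943 in the knockouts and 836, 866 and 588 in their controls. All 3 knockouts lay above all 3 controls. It was the 1 member whose groups did not overlap there, against 7.51% of all tested probe sets. The change was 0.30 (SE 0.17, unadjusted p = 0.0983, limma adjusted p = 1), and it was 0.13 without knockout control 3. In the overexpressors Psmb2 was at 0.11. Psmb4 read 858, 1207 and 1168 in the overexpressors and 1540, 1125 and 1038 in their controls. The extremes were overexpressor 1 and overexpressor control 1, and the groups overlapped (-0.18, SE 0.22, limma adjusted p = 0.930; 0.04 in the knockouts). Psmb1 was at -0.10 and 0.04, with 0.0065 and -0.0096 on its second tested probe set, and Psmb3 at -0.10 and 0.16.

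The ATPase genes of the base gave 6 of 6 values below 0 in the overexpressors, from -0.15 to -0.0099, and 6 of 6 above 0 in the knockouts, from 0.05 to 0.32. Psmc2 read 424, 492 and 658 in the knockouts and 483, 473 and 291 in their controls, so knockout 3 and knockout control 3 were the extremes and knockout 1 lay within the controls. The change was 0.32 (SE 0.21, limma adjusted p = 1), beside -0.04 in the overexpressors. Psmc3 read 572, 575 and 613 in the knockouts, close to each other, and 470, 622 and 373 in their controls, whose highest value exceeded all 3 knockouts. The change was 0.28 (SE 0.16, limma adjusted p = 1), with -0.06 in the overexpressors. Its second tested probe set gave 0.06 in the knockouts and -0.17 in the overexpressors. Psmc1 was at -0.01 and 0.13, Psmc4 at -0.0099 and 0.23, Psmc5 at -0.04 and 0.05, and Psmc6 at -0.15 and 0.15. Of the other base genes, the scaffold subunits Psmd1 and Psmd2 were at 0.04 and 0.19 and at 0.05 and -0.04, and the ubiquitin receptor Psmd4 was at -0.09 and 0.20.

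The lid held the member with the smallest p in the overexpressors. Psmd8, a structural lid subunit, read 712, 1009 and 955 in the overexpressors and 695, 597 and 617 in their controls. All 3 overexpressors lay above all 3 controls, with overexpressor 1 only just above overexpressor control 1. It was the 1 member without overlap in that comparison, where 8.77% of all tested probe sets had none. The mean was 892 ± 158 against 636 ± 52.2 (SD, n = 3 arrays each), a log2 change of 0.45 (SE 0.19, 95% interval 0.04 to 0.86, unadjusted p = 0.0331, limma adjusted p = 0.913). The change kept its sign under every alternative run, from 0.36 without overexpressor 2 to 0.64 with array weights, which count arrays that stray from their group for less and gave overexpressor 1 a weight of 0.33. Array weights, whose iteration stopped before it converged and which called 419 probe sets in this comparison, called it (limma adjusted p = 0.00698), and elsewhere its adjusted p ran from 0.225 with quantile normalization upward. In the knockouts Psmd8 read 563, 641 and 839 against 726, 728 and 485, with overlap, and the change was 0.08.

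Psmd14, the deubiquitinating subunit of the lid, read 546, 645 and 702 in the knockouts and 560, 583 and 348 in their controls. Knockout control 3 stood below the other 5, and knockout 1 lay within the controls. The change was 0.35 (SE 0.20, limma adjusted p = 1), 0.13 without knockout control 3, and 0.01 in the overexpressors. Of the other lid genes, overexpressor first, Psmd3 was at 0.10 and 0.16, Psmd6 at -0.10 and 0.22, Psmd7 at -0.13 and 0.23, Psmd12 at 0.08 and 0.13, Psmd13 at -0.07 and 0.09 and Psmd11 at 0.02 and 0.19. Psmd11 had 2 further tested probe sets. One was at 0.04 and 0.06. The other, less certain because its name carries the suffix r, read 721, 717 and 736 in the overexpressors and 1187, 850 and 731 in their controls. Its change of -0.31 (limma adjusted p = 0.913) rested mostly on overexpressor control 1, and it was -0.02 in the knockouts.

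The helpers that assemble the base are not part of the finished particle. Psmd5 read 247, 329 and 299 in the overexpressors and 350, 295 and 344 in their controls, with 1 control between overexpressors 1 and 3. The change was -0.16 (SE 0.12, limma adjusted p = 0.913), and 0.05 in the knockouts. Psmd9 was at -0.07 and 0.13. The untested Psmd10 read 131 to 165 in the overexpressor line and 115 to 160 in the knockout line.

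The activators open the barrel without the usual cap. Psme4, which encodes the activator also called PA200, had the largest change of any member. It read 340, 424 and 524 in the knockouts and 318, 372 and 188 in their controls. Knockout 3 was the highest and knockout control 3 the lowest, and the control at 372 lay above knockout 1, so the groups overlapped. The mean was 429 ± 92.1 against 293 ± 94.7 (SD, n = 3 arrays each), a log2 change of 0.53 (SE 0.25, 95% interval -0.03 to 1.08, unadjusted p = 0.0604, limma adjusted p = 1). Without knockout control 3 it was 0.27. In the overexpressors Psme4 read 136, 269 and 267 against 288, 231 and 221, and the change was -0.16, with overexpressor 1 far below the rest. The difference between its changes in the lines was -0.69 (95% interval -1.47 to 0.09, limma adjusted p = 0.893).

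Psme1, a subunit of the activator induced by interferon, read 467, 648 and 673 in the overexpressors and 813, 586 and 661 in their controls. Overexpressor 1 was lowest and overexpressor control 1 highest, with overlap between the groups (-0.20, SE 0.21, limma adjusted p = 0.928). In the knockouts it read 567, 706 and 886 against 700, 791 and 499 (0.11, 95% interval -0.33 to 0.56). Psme3, of the nuclear activator, was at 0.10 and 0.0040. Of the genes matched by name only, Psme3ip1 was at -0.15 and 0.11. Psmc3ip, a partner of meiotic recombinases, read 28.3, 50.4 and 39.9 in the overexpressors and 59.1, 43.6 and 56.4 in their controls, near the smallest deposited value of 21.9 (-0.24, SE 0.16, limma adjusted p = 0.913), and it passed the filter on dim probe sets only through the knockout line.

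**Figure D4:**
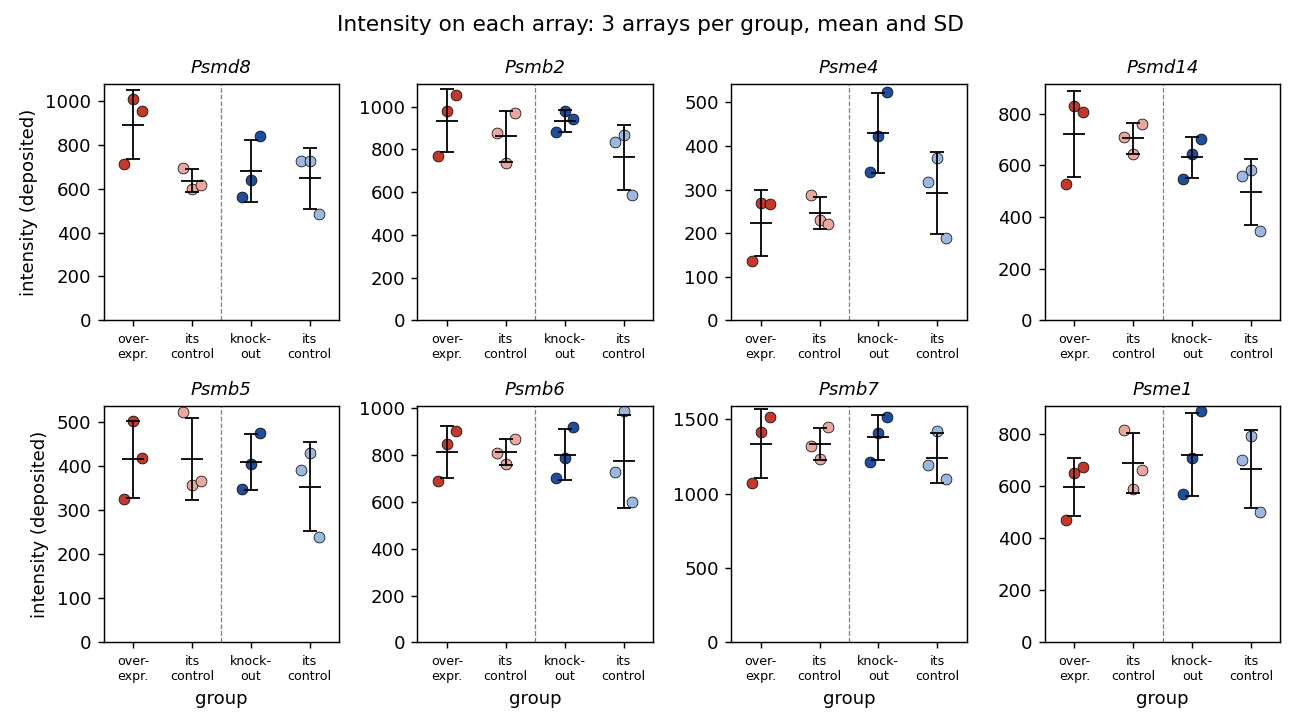
Deposited intensity of 8 members on every array (points, left to right replicate 1, 2 and 3), with the mean and SD of each group of 3 (bars), for overexpressors, knockouts and their controls. Psmd8 is higher on all 3 overexpressors than on their controls, and Psmb2 on all 3 knockouts, while the low point of the knockout controls is replicate 3 in all 8 panels.

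The promoters of the members whose values the results turn on are shown to place the motifs known from subunit genes. Sequences are from RefSeq on GRCm38.p6 and were matched for 33 of the 39 members. Those shown for Psmd8, Psme4 and Psmb6 end at the base before the annotated transcription start, and that of Psmb5 stops short of it. Psmd8, the smallest p in the overexpressors, lies on the minus strand of chr7:29180674-29180923, with a YY1 core in capitals. Psme4, the largest change, lies on the plus strand of chr11:30771525-30771774, with an ETS site in capitals. Of Psmb5 (minus strand, chr14:54618004-54618072) and Psmb6 (plus strand, chr11:70525318-70525356), both genes of cutting subunits, only the stretch around the core of the antioxidant response element is shown, which Nfe2l1 and Nfe2l2 bind.
Psmd8: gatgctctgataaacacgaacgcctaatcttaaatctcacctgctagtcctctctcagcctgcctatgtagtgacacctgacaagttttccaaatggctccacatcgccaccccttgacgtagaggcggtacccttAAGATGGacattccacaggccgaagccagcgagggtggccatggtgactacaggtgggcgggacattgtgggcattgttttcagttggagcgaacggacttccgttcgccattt
Psme4: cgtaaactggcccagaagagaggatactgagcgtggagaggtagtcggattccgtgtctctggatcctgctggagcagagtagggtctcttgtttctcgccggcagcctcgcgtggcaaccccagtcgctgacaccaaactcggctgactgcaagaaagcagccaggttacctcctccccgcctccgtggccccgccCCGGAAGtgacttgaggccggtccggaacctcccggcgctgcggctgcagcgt
Psmb5: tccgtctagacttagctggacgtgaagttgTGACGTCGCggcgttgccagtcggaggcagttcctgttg
Psmb6: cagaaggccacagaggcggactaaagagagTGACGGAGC

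Short motifs were searched on both strands of the 250 bases before the start, and overlapping matches were allowed. The ETS site CCGGAAG was found in 12 of 33 members (36.4%), among them Psmc1, Psmc2, Psmd2, Psmd6, Psme4 and the name match Psmc3ip, against 7.83% of all 27025 genes with a promoter entry. The antioxidant response element core TGACNNNGC was found in 5 (15.2%), which were Psmb5, Psmb6, Psmc6, Psmd9 and Psmd12, against 11.5% of all genes. The CCAAT box was found in 14 (42.4%) against 37.5%. The core GCATGCG of nuclear respiratory factor 1 was found in 2 members (6.06%), Psma2 and Psmc5, against 3.43%, and the YY1 core AAGATGG in 2, Psmc4 and Psmd8, against 5.18%. A match describes the letters of this window and is not a binding site.

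The rest of the ubiquitin pathway also gave no call. Across 11 lists of related genes, 0 genes passed limma's test in either line, where 0.0805% and 0.121% of all tested probe sets did. At an unadjusted p under 0.05 there were 3, Usp2 in the overexpressors and Ufd1 and Cops7b in the knockouts. The lists held from 2 to 18 tested genes each. Usp2 was among 17 tested deubiquitinases, Ufd1 among 12 tested Vcp and shuttle factors and Cops7b among 9 tested COP9 signalosome genes. Of all tested probe sets 4.76% and 3.98% had such a p. The immunoproteasome genes Psmb8, Psmb9 and Psmb10, whose products replace the cutting subunits in immune activation, were at -0.03, 0.07 and -0.01 in the overexpressors and at -0.09, -0.21 and 0.12 in the knockouts. Of the list of assembly factors and regulators, 4 of 12 tested genes were above 0 in the overexpressors (median -0.12) and 7 of 12 in the knockouts (median 0.06). It holds Pomp, which matures the barrel (0.02 and 0.25), the proteasome adaptor Ecpas (-0.34 and 0.28), Akirin2, an import factor (-0.20 in the overexpressors), Sem1, a small lid subunit (-0.27), and Txnl1, a cap-bound thioredoxin (0.24 in the knockouts). Of the transcription factors that act on subunit genes or on their regulators, 4 were tested, and all were below 0 in the overexpressors (median -0.15) and 3 above 0 in the knockouts (median 0.03). Nfe2l1 was at -0.05 and 0.15, Nfe2l2 at -0.23 and -0.05, and Foxo4 at -0.10 and 0.03, and Stat3 at -0.20 in the overexpressors. The Nfe2l2 target enzymes had 2 of 5 above 0 in the overexpressors and 3 of 5 in the knockouts, with Gstm1 at 0.07 and -0.14, Txnrd1 at -0.04 and 0.16, Hmox1 at -0.05 in the overexpressors and Srxn1 at 0.10 in the knockouts.

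The enzymes that attach and remove ubiquitin also gave mostly values below 0 in the overexpressors and above 0 in the knockouts, where 29.7% and 63% of all tested probe sets were above 0. Relative to the mean of the line, the E2 enzymes averaged -0.31 on overexpressor 1 and -0.32 on knockout control 3. On the same arrays the E3 ligases averaged -0.18 and -0.18, the deubiquitinases -0.15 and -0.16, and all tested probe sets -0.16 and -0.15. Of the ubiquitin and E1 list, the 2 tested genes were Nedd8, a ubiquitin-like modifier (-0.15 and 0.38), and Uba3, part of the enzyme that activates it (-0.19 and 0.24). The E2 conjugating enzymes had 2 of 14 above 0 in the overexpressors (median -0.10) and 11 of 14 in the knockouts (median 0.14). Their smallest p-values were those of Ube2r2 (-0.36), Ube2h (-0.25) and Ube2g1 (-0.31) in the overexpressors and of Cdc34 (0.36), Ube2b (0.23) and Ube2n (0.28) in the knockouts. The E3 ligases had 7 of 18 and 13 of 18 above 0, with Traf6 (0.17), Cul3 (-0.21) and Stub1 (-0.29) first in the overexpressors and Cul2 (0.22), Ube3a (0.25) and Traf2 (-0.18) in the knockouts. The deubiquitinases had 3 of 17 and 13 of 17 above 0. Among them Usp2 read 158, 178 and 208 in the overexpressors and 247, 183 and 262 in their controls, with overlap (-0.29, unadjusted p = 0.0396, limma adjusted p = 0.913), and was at 0.22 in the knockouts. Usp19 (-0.20) and Usp25 (0.20) followed in the overexpressors, and Usp1 (0.40) and Usp5 (0.20) were among the first 3 in the knockouts.

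Ufd1, a partner of the unfolding ATPase Vcp, had the smallest p of the pathway lists. It read 229, 229 and 224 in the knockouts and 183, 140 and 126 in their controls. All 3 knockouts lay above all 3 controls, where 7.51% of all tested probe sets had no overlap. The change was 0.51 (95% interval 0.23 to 0.79, unadjusted p = 0.00172, limma adjusted p = 0.630), beside 0.18 in the overexpressors. In its list, 5 of 12 genes were above 0 in the overexpressors and 10 of 12 in the knockouts. Derl1 (0.30), Derl2 (-0.20) and Sqstm1 (-0.25) had the smallest p-values in the overexpressors, and Derl2 (0.21) and Sel1l (0.26) came after Ufd1 in the knockouts. The COP9 signalosome, a relative of the lid, had 1 of 9 above 0 in the overexpressors and 7 of 9 in the knockouts. Its member Cops7b read 187, 211 and 195 in the knockouts and 162, 166 and 171 in their controls, without overlap (0.21, unadjusted p = 0.0393, limma adjusted p = 1). Cops5 was at -0.23 in the overexpressors and 0.47 in the knockouts. Cops3 was at 0.38 in the knockouts and Cops2 at -0.12 in the overexpressors. The autophagy genes, of the other main route of degradation, had 6 of 18 above 0 in the overexpressors (median -0.08) and 15 of 18 in the knockouts (median 0.10), with Map1lc3a at -0.38 and 0.28, Tfeb at 0.17 in the overexpressors, and Ctsd (0.15) and Ulk1 (0.16) in the knockouts.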

How the data were processed

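RNeasy-extracted total RNA was hybridised to Affymetrix arrays, per the labels. The deposited values are intensities on a linear scale, and what the authors did to summarise and scale them is not given in the sources used. The overexpressor line has a smallest intensity of 21.9 and the knockout line one of 22.27, so the lines may have been processed separately. Arrays give no read depth; their number limits the precision.

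Values were transformed as log2(intensity + 36.92), the 10th percentile of the table, which understates changes of dim probe sets. The dimmest 40% of probe sets by mean were left out (4968 of 12422), and limma 3.58.1 (R 4.3.3) fitted the 4 group means to the 12 arrays, with a trended eBayes prior of 4.27 degrees of freedom beside 8 residual ones. The fit was tried on simulated data with noise independent between probe sets and arrays. Shifts shared by many probe sets on an array were not simulated, so that trial does not cover them. The closest arrays of a group differed by a root mean square of 0.18 in log2, so each counted as 1 replicate. Litters are not stated, so p-values measure the spread between these arrays.

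In the platform annotation 10833 probe sets had 1 symbol, 396 had several and 1193 had none; of the first, 10817 matched a GRCm38.p6 gene ID. Probe sets of 7 members (Psma3, Psmb4, Psmb5, Psmb7, Psmc3, Psmd9 and Psmd12) carry a suffix f, s, i or r in their name, so these are uncertain. Those with f or s (Psma3, Psmb4, Psmb5, Psmb7 and Psmd12) have probes that other transcripts may share. Values on every array were given for the 6 members with the smallest p in each comparison, the cutting subunits, Psme1, members with discordant probe sets and, chosen after their values were seen, Ufd1, Usp2 and Cops7b. In other lists up to 3 genes with the smallest p were named. The members, lists, motifs and tests were chosen with earlier results of these data known, and longer forms of the last 2 motifs were searched first. Alternatives were another constant, filter or normalization, array weights, no trend, the line's own arrays, 1 probe set per gene, a replicate block and each array left out. Figures were drawn with matplotlib 3.10.9.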

Additional observations from a re-analysis of the deposited data

How the results depend on the processing

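No member was called in the overexpressors under any alternative except array weights, which called 1 (Psmd8) and 5.62% of all tested probe sets, and none in the knockouts or in the difference under any of them. With 3 arrays a group, intervals reached a median of 0.40 to either side, so smaller changes were not resolved. The count of members with an unadjusted p under 0.05 was 1 in the knockouts with array medians subtracted, quantile normalization or array weights. Of all tested probe sets 4.29%, 4.25% and 11.2% had such a p in these fits. In the overexpressors it was 8 with array weights, beside 23.9% of all tested probe sets in that fit, and 0 with the replicate block, beside 3.6%. Same-numbered arrays of a line correlated at -0.35 to 0.02 in their deviations. With 3 arrays a group and litters not stated, these values cannot tell whether the numbers pair the mice. The block left 0 members called, and 5 probe sets called in the overexpressors, 0 in the knockouts and 1 in the difference. Over single arrays left out, the count at that p ran from 0 to 1 in the overexpressors and from 0 to 3 in the knockouts. The shares of all tested probe sets ran from 2.60% to 11.6% and from 2.31% to 5.58%. The count of members above 0 in these fits ran from 6 to 27 in the overexpressors, beside 26.6% to 43.5% of all tested probe sets. In the knockouts it ran from 15 to 37, beside 46.8% to 68.25%. In the overexpressors it was 19 with array medians subtracted, 26 with quantile normalization and 32 with array weights, beside 46.2%, 51.7% and 42.1% of all. Without both arrays that were lowest for the members, chosen after seeing the data, it was 27 in the overexpressors and 15 in the knockouts. The shares of all tested probe sets were 43.4% and 46.8%. Leaving out Psmc3ip and Psme3ip1, also chosen after seeing the data, left medians of -0.05 and 0.15.

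Signs were followed singly only for the 6 members with the smallest p in each comparison, the cutting subunits and Psme1. Of these, 6 turned in at least 1 setting. The counts above 0 show that signs of other members turned too. In the overexpressors, array weights gave Psmb4 0.017, Psmb6 0.13, Psmb7 0.17, Psmd5 0.030 and Psme1 0.065. Array medians subtracted gave Psmb6 0.050 and Psmb7 0.048, and quantile normalization 0.094 and 0.12. Over single arrays left out in that line, Psmb5 ran from -0.14 (overexpressor 2) to 0.16 (overexpressor control 1), Psmb6 from -0.084 to 0.10 and Psmb7 from -0.11 to 0.13 (overexpressor 3 to overexpressor 1). In the knockouts they ran from -0.015 to 0.36 for Psmb5 and -0.087 to 0.26 for Psmb6 (knockout control 3 to knockout control 2), and from -0.067 (knockout control 3) to 0.27 (knockout 1) for Psme1, which was at -0.0057 with array weights. The cause was not tested.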

Other observations

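The levels of the lines were not compared by test, since strain, genotype and possibly processing cannot be told apart between them. Over the 6 arrays of each line, mutants and controls together, 3 of 38 tested members had values that did not overlap between the lines, where 18.26% of all tested probe sets had none. Psmc3ip lay between 28.3 and 59.1 in the overexpressor line, near the smallest deposited value, and between 571 and 908 in the knockout line, which alone took it past the filter on dim probe sets. Psme3, of the nuclear activator, lay between 177 and 258 and between 684 and 1129. The ATPase gene Psmc4 lay between 165 and 281 and between 304 and 540.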
